A study of Caenorhabditis elegans with 12 samples.

Results

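The Hox genes of the nematode Caenorhabditis elegans are ceh-13, lin-39, mab-5, egl-5, php-3 and nob-1. They were taken as every probe set (the group of short probes on an array that reads 1 transcript) that the platform annotation assigns to one of these 6 symbols. This gave 9 of the 22548 probe sets tested, and 6 of the 17118 genes with a probe set of their own. nob-1 had 3 probe sets, mab-5 had 2 and the other 4 genes had 1 each. All 9 matched their gene in RefSeq's table for assembly WBcel235, and that table places the 6 genes on chromosome III in the order lin-39, ceh-13, mab-5, egl-5, php-3, nob-1. lin-39 and ceh-13 are next to each other, php-3 and nob-1 are next to each other, and mab-5 and egl-5 have 1 protein-coding gene, cyk-7, between them.

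Hox genes encode homeodomain transcription factors that give cells their identity along the head-to-tail axis. In C. elegans ceh-13, the relative of the fly gene labial, acts in the anterior and is needed in embryos. lin-39 acts in the middle of the body, in the vulval precursor cells and in motor neurons of the ventral cord. mab-5 acts in the posterior body, where it directs the migration of a neuroblast and its descendants, and in the male tail. egl-5, php-3 and nob-1 are relatives of the fly gene Abdominal-B and pattern the tail, with nob-1 needed for the posterior of the embryo. Several Hox genes stay on in adult neurons, where they help to hold the neurons' identity.

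RNA was taken from whole wild-type young adult hermaphrodites in 4 groups of 3 arrays. The UV+TiO2 group received ultraviolet light together with titanium dioxide (TiO2), the UV group received ultraviolet light alone, the TiO2 group received titanium dioxide alone, and the control group received neither. All 4 groups spent 24 h at 20 °C without food in a potassium and sodium chloride medium, and the UV groups were irradiated for 4 h of it and then kept beside the other groups for the remaining 20 h. Neither the TiO2 dose nor the UV dose is given in the sources used here, and whether the 3 samples behind a group's arrays were grown apart is not stated. A p-value here therefore reflects the spread between these samples alone, which may be technical. All values are log2 expression values, summarised by the authors with RMA (a method that corrects background, equalises the arrays and gives 1 value per probe set). The values carry no call of whether a transcript was detected. Because whole worms were measured, fewer cells of a type and less RNA per cell cannot be told apart.

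The UV arrays stood apart from the others across the whole table. The principal component with the most variance held 84.8% of it and split the 6 irradiated arrays from the 6 others. Within a group, arrays correlated at 0.987 to 0.998 across probe sets. Array medians lay between 6.36 and 6.48 on the 6 UV arrays and between 6.54 and 6.63 on the 6 others. Every UV array thus had a lower median than any array without UV. The SD of an array's values lay between 2.22 and 2.33. The typical standard error (SE) of a difference between groups, the median over probe sets, was 0.12 on the log2 scale, and the number of arrays limits that precision. limma's moderated F-test found a difference among the 4 groups for 5 of the 6 Hox genes, php-3 being the exception (adjusted p = 0.474), against 55.5% of all probe sets.

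On the probe set with the highest mean, UV lowered ceh-13, lin-39, mab-5 and nob-1, both in worms without TiO2 and in worms with it. Not every nob-1 probe set fell: 175709_at was at 0.01 for UV against control and 0.07 for UV+TiO2 against TiO2. mab-5 fell 2.49-fold with UV alone, nob-1 1.91-fold, lin-39 1.87-fold and ceh-13 1.33-fold. egl-5 did not fall, and php-3 did not pass the test. These fold changes come from the probe set with the highest mean where a gene had several, and the test throughout is limma with the Benjamini-Hochberg adjustment across the 22548 probe sets, at a threshold of 0.05. For UV against control 4 of 6 genes (6 of 9 probe sets) fell and 0 rose, while of all probe sets 23.1% fell and 27.5% rose (18.5% and 54.2% with the median of every array set equal, where 3 Hox genes fell and 1, egl-5, rose). For UV+TiO2 against TiO2 4 genes fell and 1, egl-5, rose, against a background of 22.2% lower and 32.3% higher (19.3% and 51.3% with median centring, where the Hox counts were also 4 and 1). These comparisons share no array. The median over the 6 genes was −0.66 for UV against control and −0.64 for UV+TiO2 against TiO2, beside medians over all probe sets of 0.11 and 0.15.

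**Figure D1:**
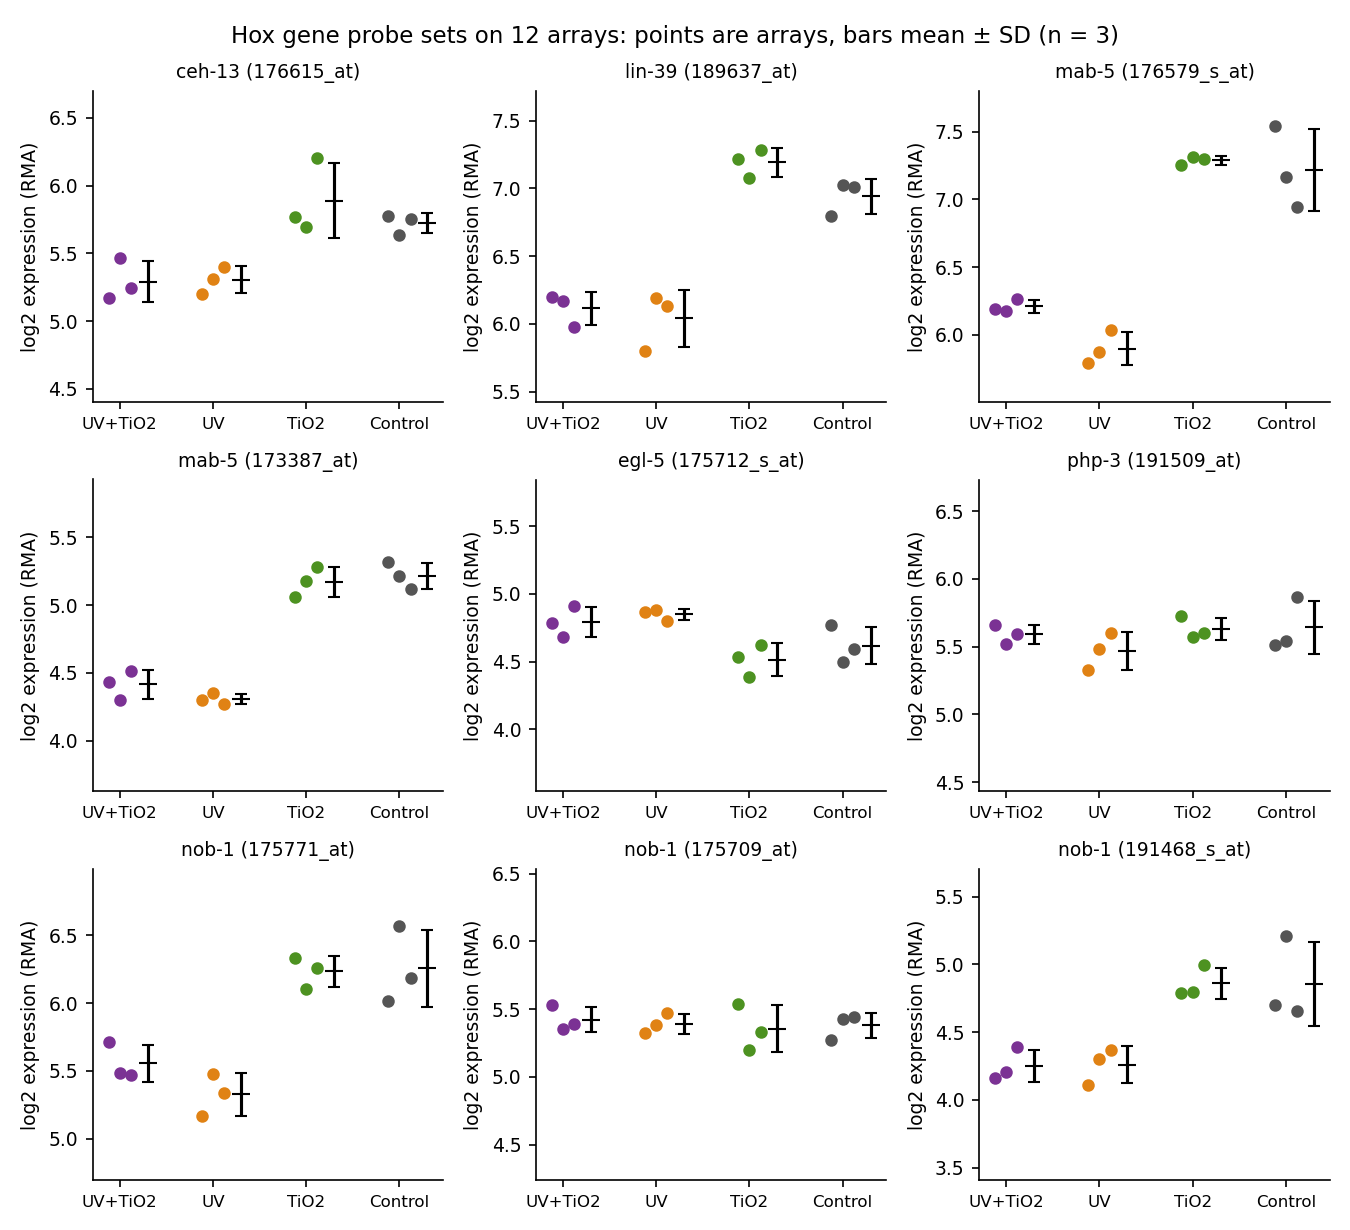
Log2 expression of the 9 Hox probe sets (1 panel each, y axis spanning the same log2 range in every panel) in the UV+TiO2, UV, TiO2 and control groups; points are arrays and bars give mean ± SD with n = 3. In 6 panels all 6 UV arrays sit below the 6 arrays without UV; egl-5, php-3 and 1 nob-1 probe set are the exceptions.

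ceh-13, the anterior gene, had 5.20, 5.31 and 5.40 on the UV arrays, against 5.78, 5.64 and 5.75 on the control arrays. With TiO2 present it had 5.17, 5.46 and 5.25 on the UV+TiO2 arrays, against 5.77, 5.69 and 6.21 on the TiO2 arrays. The groups did not overlap in either comparison, which was the case in the downward direction for 24.7% of all probe sets for UV against control and 25.2% for UV+TiO2 against TiO2. The log2 difference was −0.42 for UV against control (SE 0.13, limma adjusted p = 0.0184) and −0.60 for UV+TiO2 against TiO2 (SE 0.13, adjusted p = 0.0022). The call for UV against control rested on a small difference: it ended without UV replicate 1 (−0.36, limma adjusted p = 0.067) and with median centring of the arrays (−0.24, adjusted p = 0.122). The call for UV+TiO2 against TiO2 held in all 21 alternatives.

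lin-39, which keeps the vulval precursor cells from fusing and specifies mid-body motor neurons, had 5.80, 6.19 and 6.13 on the UV arrays, against 6.79, 7.02 and 7.01 on the control arrays. On the UV+TiO2 arrays it had 6.20, 6.17 and 5.98, against 7.22, 7.07 and 7.29 on the TiO2 arrays. Every UV array lay at least as low as 6.20 and every array without UV at 6.79 or above. The log2 difference was −0.90 for UV against control (SE 0.12, limma adjusted p = 3.86e-05) and −1.08 for UV+TiO2 against TiO2 (SE 0.12, adjusted p = 8.52e-06). Averaged over both TiO2 states lin-39 fell 1.99-fold, and 10.1% of all probe sets had a lower difference.

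mab-5, which acts behind the domain of lin-39, gave the deepest fall of the 6 genes for UV against control on probe set 176579_s_at. For UV+TiO2 against TiO2 that probe set stood level with lin-39 (−1.08 for each). Probe set 176579_s_at had 5.79, 5.87 and 6.03 on the UV arrays, against 7.54, 7.16 and 6.94 on the control arrays. With TiO2 it had 6.19, 6.18 and 6.27 on the UV+TiO2 arrays, against 7.25, 7.31 and 7.29 on the TiO2 arrays. The control arrays spread more (SD 0.30) than the TiO2 arrays (SD 0.03), and no UV array reached any array without UV. The difference was −1.32 for UV against control (SE 0.13, limma adjusted p = 2.80e-06) and −1.08 for UV+TiO2 against TiO2 (SE 0.13, adjusted p = 1.77e-05). The suffix _s_at marks probes that can match more than 1 transcript, so the second mab-5 probe set, 173387_at, which lacks it, was read separately. It averaged 4.31 ± 0.04 in UV worms and 5.22 ± 0.10 in control worms, and 4.42 ± 0.11 in UV+TiO2 worms and 5.17 ± 0.11 in TiO2 worms (SD, n = 3 each). It fell as well, by 0.91 on the log2 scale for UV against control (limma adjusted p = 3.68e-06). That is near the values of lin-39 (−0.90) and nob-1 175771_at (−0.93).

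egl-5, the gene of the tail and of the egg-laying motor neurons HSN, moved the other way. It had 4.87, 4.88 and 4.80 on the UV arrays, against 4.77, 4.50 and 4.59 on the control arrays, and 4.78, 4.68 and 4.91 on the UV+TiO2 arrays, against 4.54, 4.39 and 4.63 on the TiO2 arrays. Within each comparison every UV array was above every array without UV, but UV+TiO2 replicate 2 (4.68) lay below control replicate 1 (4.77). Of all probe sets 31.4% were higher without overlap for UV against control and 42.2% for UV+TiO2 against TiO2. The difference of 0.23 for UV against control did not pass (SE 0.10, limma adjusted p = 0.0682), but it passed with median centring (0.41, adjusted p = 0.00363), with array weights (0.33, adjusted p = 0.00362) and without control replicate 1 (0.31, adjusted p = 0.0244). That of 0.28 for UV+TiO2 against TiO2 passed (SE 0.10, adjusted p = 0.0316), and so did the average of both, 0.25 (SE 0.07, adjusted p = 0.00644). The only egl-5 probe set, 175712_s_at, carries the suffix _s_at, so its probes can match more than 1 transcript. It lay at the 15th percentile of all probe sets by mean level (15.3), and no detection call tells whether it stands above background. Its call for UV+TiO2 against TiO2 ended with a repeated quantile normalization (0.16, limma adjusted p = 0.209) and without TiO2 replicate 1 (adjusted p = 0.0503), TiO2 replicate 2 (0.127), UV+TiO2 replicate 1 (0.0691) or UV+TiO2 replicate 3 (0.121), while the value stayed above 0 in every alternative. The averaged call ended with a repeated quantile normalization (0.16, limma adjusted p = 0.073).

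php-3, the neighbour and relative of nob-1, had 5.33, 5.48 and 5.60 on the UV arrays, against 5.51, 5.54 and 5.87 on the control arrays. On the UV+TiO2 arrays it had 5.66, 5.52 and 5.60, against 5.73, 5.58 and 5.60 on the TiO2 arrays. The groups overlapped in both comparisons. The difference was −0.17 for UV against control (95% confidence interval −0.41 to 0.07, limma adjusted p = 0.209) and −0.04 for UV+TiO2 against TiO2 (−0.28 to 0.20, adjusted p = 0.753). These intervals leave room for a change of up to 0.41 downward. Its value was 0.0061 for UV against control with median centring, and it passed the test for UV averaged over both TiO2 states with a repeated quantile normalization (−0.15, limma adjusted p = 0.026).

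nob-1, which patterns the posterior of the embryo, was read by 3 probe sets, and they did not give the same result. Probe set 175771_at had 5.17, 5.48 and 5.34 on the UV arrays, against 6.02, 6.57 and 6.18 on the control arrays, and 5.72, 5.49 and 5.47 on the UV+TiO2 arrays, against 6.34, 6.11 and 6.26 on the TiO2 arrays. Without any overlap it fell by 0.93 for UV against control (SE 0.14, limma adjusted p = 0.000113) and by 0.68 for UV+TiO2 against TiO2 (SE 0.14, adjusted p = 0.00137). Probe set 191468_s_at, at a lower level, averaged 4.26 ± 0.13 in UV worms and 4.86 ± 0.31 in control worms (SD, n = 3 each), and fell by 0.59 (limma adjusted p = 0.00338). It carries the suffix _s_at and lay at percentile 12.7 of all probe sets by mean level. No detection call tells whether it stands above background. Probe set 175709_at had 5.32, 5.39 and 5.47 on the UV arrays, against 5.27, 5.43 and 5.44 on the control arrays. Its difference was 0.01 for UV against control (95% confidence interval −0.21 to 0.23, limma adjusted p = 0.924). It passed as higher with median centring for UV averaged over both TiO2 states (0.19, limma adjusted p = 0.0142). The annotation ties 175771_at and 175709_at to different deposited transcript sequences. Whether they detect different transcripts of nob-1 was not tested.

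**Figure D2:**
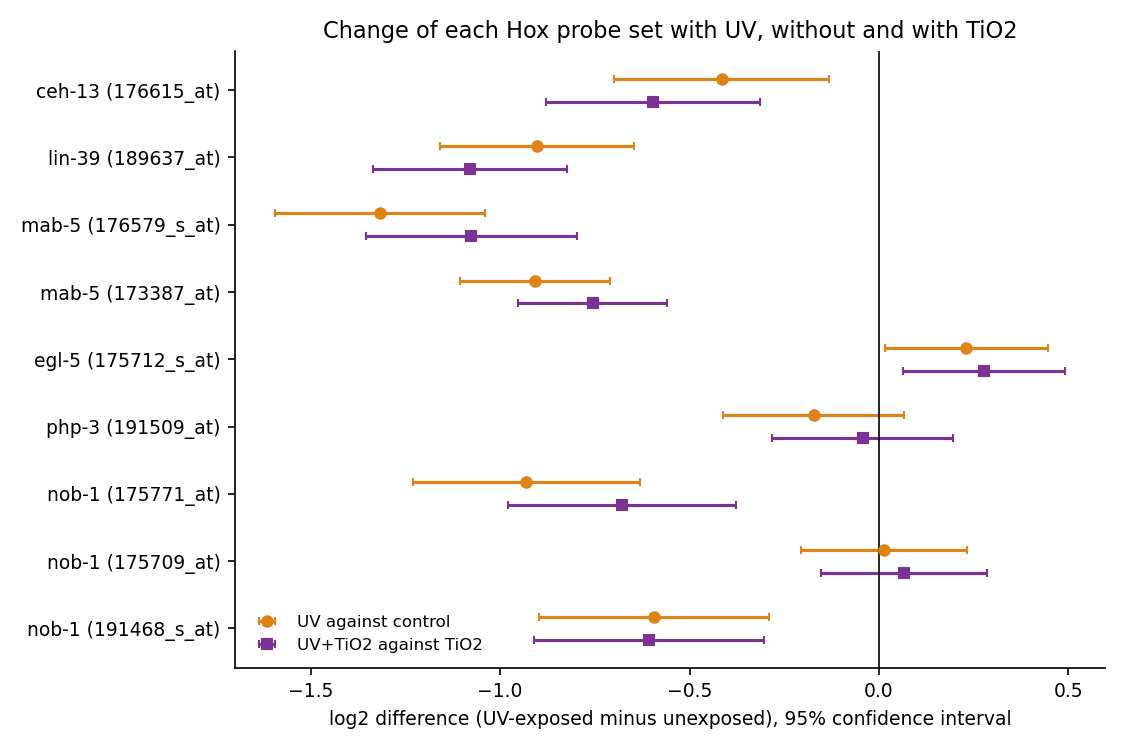
Log2 difference of each Hox probe set for UV against control (circles) and UV+TiO2 against TiO2 (squares), with 95% confidence intervals from limma. The intervals of ceh-13, lin-39, both mab-5 probe sets and 2 of the 3 nob-1 probe sets lie below 0 in both comparisons, those of egl-5 lie above 0, and those of php-3 and of nob-1 175709_at include 0.

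The joint exposure against control gave 4 genes lower and 0 higher (background 22.6% lower and 31.9% higher). It shares its control arrays with the comparison of UV against control. mab-5 176579_s_at was at −1.01, lin-39 at −0.83, nob-1 175771_at at −0.70 and ceh-13 at −0.43, with limma adjusted p of 3.27e-05, 8.63e-05, 0.00111 and 0.0151. egl-5, at 0.17 (adjusted p = 0.149), passed with median centring (0.31, adjusted p = 0.0172) and with array weights (0.26, adjusted p = 0.0234). The call of ceh-13 ended without UV+TiO2 replicate 1 (−0.37, adjusted p = 0.0626) and with median centring (−0.30, adjusted p = 0.0601).

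With UV averaged over both TiO2 states, 6 arrays against 6, 4 genes fell and egl-5 rose, against 26.1% of all probe sets lower and 42.3% higher (21.4% and 62.4% with median centring). The 6 UV arrays lay wholly below the 6 others for 4 of 6 genes and 6 of 9 probe sets, and for 20.5% of all probe sets. On this scale mab-5 176579_s_at was at −1.20 (8.03% of all probe sets were lower), lin-39 at −0.99 (10.1%), nob-1 175771_at at −0.80 (12.5%) and ceh-13 at −0.51 (17.6%). The members that fell thus lie in the lower part of a wide distribution, not at its edge.

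**Figure D3:**
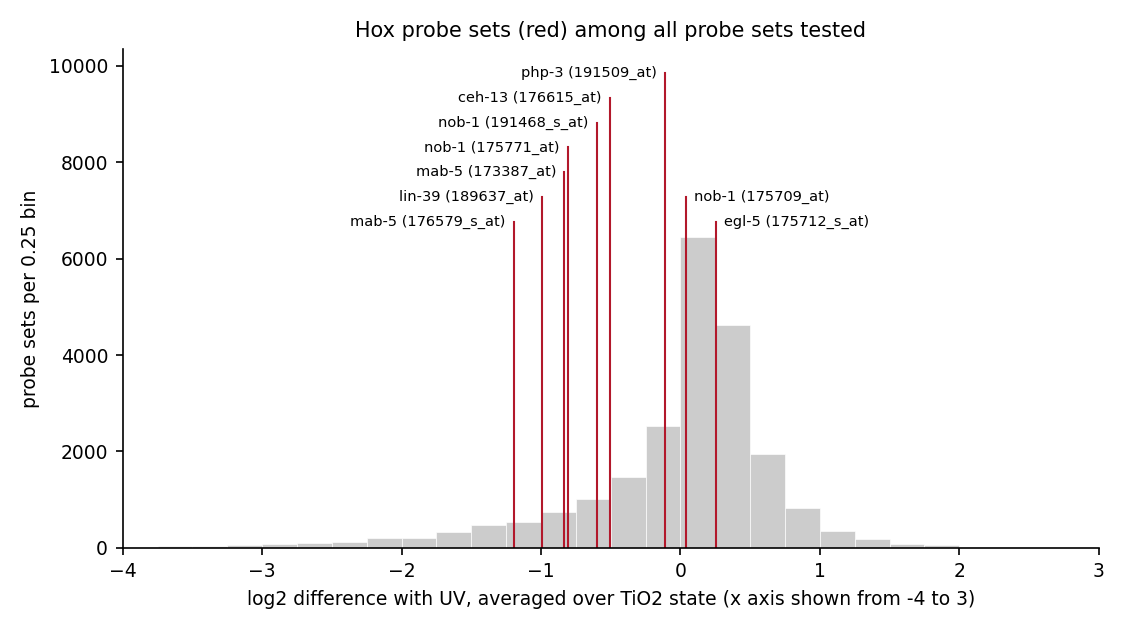
Histogram of the log2 difference with UV, averaged over TiO2 state, for all 22548 probe sets in bins of 0.25 (x axis shown from -4 to 3), with a red line at each Hox probe set. The lines run from −1.20 for mab-5 to 0.25 for egl-5, while the most filled bin starts at 0.

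Pairs of Hox probe sets were compared in their response to UV. The within-array difference of each pair of probe sets was compared between the 6 UV arrays and the 6 others with a two-sided exact permutation test over 924 arrangements, whose smallest possible p is 0.00216. A shift common to an array cancels in it. This test was chosen after the fits were seen, and its p-values were adjusted over 19 pairs. Of the 15 pairs of genes, each gene read by its probe set with the highest mean, 12 passed. lin-39 and mab-5, the mid-body and posterior-body genes, differed by 0.21 in their log2 change, which did not pass (exact permutation test, adjusted p = 0.199), nor did ceh-13 against nob-1 (0.30, adjusted p = 0.0891) or lin-39 against nob-1 (−0.19, adjusted p = 0.0891). mab-5 minus egl-5 was −1.45 (exact permutation test, adjusted p = 0.00411), and only cyk-7 separates them on the chromosome. php-3 minus its neighbour nob-1, 175771_at, was 0.70 (exact permutation test, adjusted p = 0.00411), but nob-1 175709_at read 0.04 with UV and php-3 −0.11, so the sign turns with the nob-1 probe set. Probe sets of one gene differed as well, mab-5 176579_s_at minus 173387_at by −0.36 (exact permutation test, adjusted p = 0.00633) and nob-1 175771_at minus 175709_at by −0.84 (adjusted p = 0.00411). Of the 12 pairs of genes that passed, 7 differed by less than these nob-1 probe sets did, so for those pairs a difference between genes cannot be told apart from one between probe sets. Of the remaining pairs, egl-5 minus nob-1 175771_at was 1.06 (exact permutation test, adjusted p = 0.00411). With UV egl-5 read 0.25 and nob-1 175709_at 0.04, so the size of that difference also depends on the nob-1 probe set.

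TiO2 changed no Hox gene by the test. For TiO2 against control 0 of 6 genes passed, with a limma adjusted p of 0.99986 for each and an unadjusted p under 0.05 for 0 of 9 probe sets, and of all probe sets 0.00443% passed. The value farthest from 0 was that of lin-39, which had 7.22, 7.07 and 7.29 on the TiO2 arrays, against 6.79, 7.02 and 7.01 on the control arrays. All 3 TiO2 arrays lay above the control arrays, as did those of 2.72% of all probe sets, with a difference of 0.25 (95% confidence interval −0.01 to 0.51). For mab-5 176579_s_at the interval was −0.21 to 0.35, and for nob-1 175771_at −0.32 to 0.28.

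Under UV, TiO2 changed no Hox gene by the test either (0 of 6, against 0.0887% of all probe sets). mab-5 176579_s_at had 6.19, 6.18 and 6.27 on the UV+TiO2 arrays, against 5.79, 5.87 and 6.03 on the UV arrays. These groups did not overlap, which held upward for 9.85% of all probe sets, and the difference was 0.31 (95% confidence interval 0.03 to 0.59, unadjusted p = 0.0304, limma adjusted p = 0.71). It passed with array weights (0.34, limma adjusted p = 0.0119). The second mab-5 probe set was at 0.11 with overlapping arrays (adjusted p = 0.89). The interaction of UV and TiO2 passed for 0 of 6 genes and for 0% of all probe sets. It lay between −0.18 for ceh-13 and 0.25 for nob-1 175771_at, with limma adjusted p between 0.962 and 0.996 over the 9 probe sets, and its 95% confidence interval for mab-5 176579_s_at ran from −0.15 to 0.63.

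The genes beside the Hox genes were read in the same fit. The nearest protein-coding genes were taken, up to 2 on each side of each Hox gene, from the gene order in WBcel235. This listed 13 other genes, of which 12 had a probe set of their own. With UV averaged over both TiO2 states 1 fell and 3 rose by limma and 8 did not pass, on the probe set with the highest mean, while of all genes 25.7% fell and 42.8% rose. Beside lin-39, the DNA ligase gene lig-4 was at 0.11 (adjusted p = 0.46) and C07H6.2 rose (1.05, adjusted p = 8.39e-07). Between ceh-13 and the genes after it, lgc-12, which encodes a ligand-gated ion channel subunit, was at 0.12 (adjusted p = 0.227). Beside mab-5, bath-15 rose (0.29, adjusted p = 0.0319), and cyk-7, between mab-5 and egl-5, was at 0.06 (adjusted p = 0.526). ZK686.1 rose (0.66, adjusted p = 6.01e-06). Beyond nob-1, lonp-2, which encodes a peroxisomal Lon protease, fell (−0.56, adjusted p = 0.000403). Of the neighbours with 2 probe sets, egl-45, a translation initiation factor gene, read −0.10 on the probe set with the higher mean and 0.52 on the other, which passed (limma adjusted p = 0.00471). zyg-8 read 0.16 and 0.41, and the second passed as well (adjusted p = 0.00282).

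**Figure D4:**
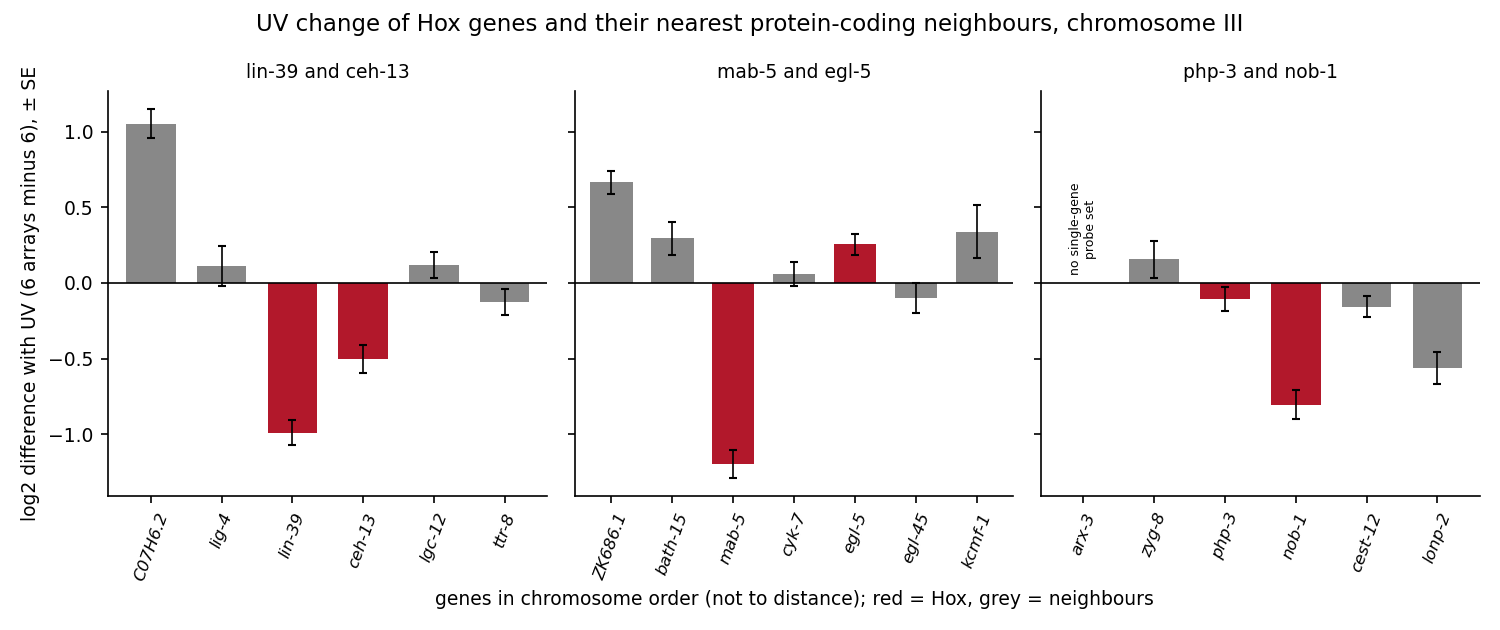
Log2 difference with UV (6 UV arrays minus 6 arrays without UV, ± SE) for the Hox genes (red) and their nearest protein-coding neighbours (grey), in their order on chromosome III and not to distance. lin-39, ceh-13, mab-5 and nob-1 reach from −0.51 to −1.20, while most grey bars lie between −0.16 and 0.34.

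Hox proteins bind DNA together with homeodomain cofactors of the PBC and Meis families, and the PBC gene ceh-20 fell with 4 of the Hox genes. ceh-20, the relative of fly extradenticle, averaged 7.43 ± 0.14 in UV worms and 9.42 ± 0.13 in control worms, and 7.79 ± 0.14 in UV+TiO2 worms and 9.75 ± 0.05 in TiO2 worms (SD, n = 3 each). Its difference was −1.99 for UV against control (SE 0.10, limma adjusted p = 9.10e-09). Of the 5 cofactor genes 4 fell and 1 rose with UV averaged over both TiO2 states, and their median was −0.78, beside a median of 0.14 over all genes, of which 25.7% fell and 42.8% rose. psa-3, a Meis-family gene (−0.88), and ceh-60, a PBC gene (−0.78), fell too. ceh-40, another PBC gene, rose (0.86, SE 0.09, limma adjusted p = 3.13e-06). unc-62, the relative of fly homothorax, fell least (−0.26, adjusted p = 0.0454), and is named although it lies outside the rule for named genes.

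Lists of genes that set Hox expression are read against the same shares of all genes, 42.8% higher and 25.7% lower with a median of 0.14. In the list of Polycomb-like and other repressors 3 of 9 measured genes rose and 2 fell (median 0.15), which is near those shares. The chromatin gene sor-1 fell (−0.48) and lin-15A, a gene of the synthetic multivulva class, rose (0.55). In the list of Trithorax-like genes, demethylases of histone H3 lysine 27 and other regulators, 4 of 12 rose and 5 fell (median 0.03). The demethylase gene jmjd-3.1 averaged 6.09 ± 0.15 in UV worms and 7.66 ± 0.12 in control worms (SD, n = 3 each), a fall of 1.57 on the log2 scale (limma adjusted p = 3.13e-08). set-16 (−0.52) and lin-59 (−0.75), which encode relatives of Trithorax-group methyltransferases, fell too. dpy-30, of the same list, rose (0.30, limma adjusted p = 0.00187). Of 20 Wnt, Ras and other inputs 9 rose and 9 fell (median 0.05, and −0.02 with a repeated quantile normalization). The Wnt ligand genes cwn-1 (−1.48) and lin-44 (−1.14) and the Frizzled receptor genes lin-17 (−1.45) and mig-1 (−1.31) were the 4 with the smallest p, and each fell.

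Of 15 genes listed as Hox targets 11 fell and 2 rose with UV averaged over both TiO2 states (median −0.28). Of all genes 25.7% fell and 42.8% rose (median 0.14). A filter on low values kept 9 of the 15, of which 7 fell and 1 rose (median −0.53). With that filter 32% of all probe sets fell and 43.8% rose. Without it, 9 of the 15 fell and 1 rose for UV against control, beside 22.8% and 27.9% of all genes. For UV+TiO2 against TiO2 8 fell and 2 rose (21.8% and 32.8%). For UV+TiO2 against control 6 fell and 1 rose (22.2% and 32.4%), with a median of −0.08. The list was chosen with earlier results of these data known. mig-13, which encodes a transmembrane protein that guides migrating neuroblasts, averaged 5.72 ± 0.09 in UV worms and 7.14 ± 0.07 in control worms (SD, n = 3 each; log2 difference −1.41, limma adjusted p = 4.02e-08). The homeobox gene vab-15 (−1.19) and psa-3 fell as well. egl-1, the activator of programmed cell death, rose (1.03, SE 0.07, limma adjusted p = 7.12e-08). The wider class of other homeobox genes, which includes the cofactors, had 92 measured members, of which 44 fell and 22 rose (median −0.13, turning to 0.02 with 35 falls and 34 rises with median centring). ceh-36 (−1.38), ceh-34 (−1.73) and unc-42 (−1.23), which specify head neurons, stood with ceh-20 among the 4 with the smallest p. No list contained a call for TiO2 against control.

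**Figure D5:**
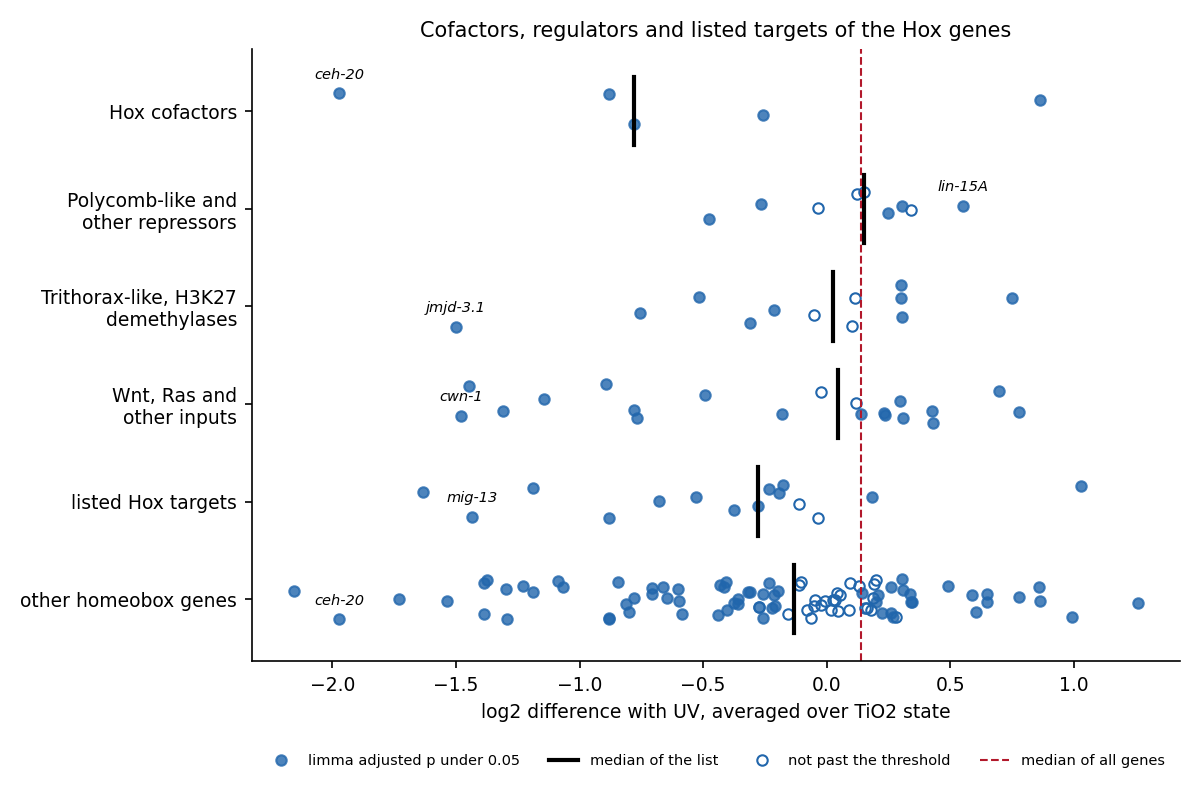
Log2 difference with UV, averaged over TiO2 state, for the members of 6 gene lists; filled points passed limma's threshold, open points did not, black bars are list medians and the dashed line is the median over all genes (0.14). The cofactor ceh-20 lies at −1.97 and the listed target mig-13 at −1.43, while the repressor and Trithorax-like lists lie on both sides of 0.

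Marker lists of tissues and stages are given for UV averaged over both TiO2 states, for which 42.8% of all genes rose and 25.7% fell (median 0.14). Of 15 pan-neuronal genes 11 fell and 1 rose (median −0.83). Their mean log2 level was 6.99 to 7.06 on the UV+TiO2 arrays, 7.05 to 7.11 on the UV arrays, 7.82 to 7.99998 on the TiO2 arrays and 7.84 to 8.07 on the control arrays. Of 14 genes of ventral cord motor neurons 9 fell and 0 rose (median −0.21), with means of 5.49 to 5.56, 5.35 to 5.51, 5.83 to 5.92 and 5.81 to 5.95 in the same order of groups. Of 10 epidermal and seam genes 8 fell and 1 rose (median −1.16). Of 18 late embryonic and early larval markers, 15 fell and 2 rose (median −1.99), with means of 7.52 to 7.68 on the UV+TiO2 arrays, 7.42 to 7.52 on the UV arrays, 9.69 to 9.78 on the TiO2 arrays and 9.49 to 9.71 on the control arrays. Of 17 genes of early and middle embryos 8 rose and 4 fell (median 0.17), shares and a median near those of all genes. Their part in the Hox values was not tested.

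Of 11 vulval and uterine genes 6 fell and 2 rose (median −0.18), 7 of 12 genes of body wall muscle were among the falls and 1 among the rises (median −0.39), and of 10 intestinal genes 9 fell and 1 rose (median −1.35). Germline genes rose in 9 of 14 cases, sperm genes in 9 of 10 and adult male tail genes in 6 of 8, with 0 falls in each, against the 42.8% of all genes that rose and 25.7% that fell. Fewer adult male tail genes rose in the single comparisons. There were 2 of 8 for UV against control (27.9% of all genes) and 4 of 8 for UV+TiO2 against TiO2 (32.8%). Among the 6 rises, cwp-1 and cwp-2 had low levels, averaging 3.83 and 3.71 in control worms. No detection call tells whether they stand above background. The worms were hermaphrodites, and whether these rises reflect male tail expression was not tested.

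The genes whose values followed a Hox gene most closely were found by Pearson's r over the 12 arrays, among 17117 other genes with their own probe set. Because the arrays fall into those with and without UV, r is given within each set of 6 and is a description only. For mab-5 the 3 genes were F47B8.10 (0.89 over the UV arrays and 0.88 over the others), K11C4.2 (0.91 and 0.91) and the insulin-like peptide gene ins-7 (0.96 and 0.82). For lin-39 they were bus-28 (0.96 and 0.67), K10D6.4 (0.76 and 0.86) and the patched-related gene ptr-25 (0.73 and 0.80). For nob-1 they were jip-1 (0.91 and 0.85), Y22D7AR.6 (0.89 and 0.93) and the pharyngeal factor gene pha-4 (0.86 and 0.89). For ceh-13 they were W01C9.1 (0.74 and 0.92), madf-10 (0.85 and 0.93) and lsy-12 (0.10 and 0.94). For egl-5 they were F01D5.3 (0.52 and 0.94), Y41C4A.9 (0.22 and 0.97) and cest-2.2 (0.71 and 0.73). For php-3 they were F59F5.5 (0.98 and 0.92), mtig-1 (0.98 and 0.95) and xtr-1 (0.96 and 0.92). The r of lsy-12, F01D5.3 and Y41C4A.9 was thus low over the UV arrays.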

How the data were processed

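RNA of 12 samples (300 ng each) was amplified, biotin-labelled and hybridised to 12 Affymetrix arrays. The authors used GCOS, the Affymetrix Expression Console and RMA, per the submitters' processing notes, and their versions are not given in the sources available. The deposited values are log2 expression values. A loss of all RNA alike in a group would not show after RMA. Of 22625 probe sets 77 control probe sets were left out, and no filter was set on low values. Genes were named from the platform annotation, where 20766 probe sets had 1 symbol, 887 several and 895 none. Where a gene had more than 1 probe set, that with the highest mean stood for it.

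The main model held the 4 group means and all 12 arrays (lmFit and eBayes of limma 3.58.1, R 4.3.3) without a replicate block, with 8 residual and 4.37 prior degrees of freedom, and the fit was tested on simulated data. Named genes are all Hox probe sets, their neighbours, up to 4 members of each of 6 lists with the smallest p for UV averaged over TiO2 state, and 3 genes of like pattern each. The 11 marker lists are given by counts. Members and lists were chosen with earlier results of these data known. Alternatives were a replicate block, other variance models, a filter on low values, other scalings, array weights, a table of lead probe sets alone, a fit to the compared groups alone, the lowest probe set of a gene, and each array left out. A covariate holding each array's SD was an alternative chosen after seeing the data. Planned descriptions of promoters and homeodomains were not made.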

Additional observations from a re-analysis of the deposited data

How the results depend on the processing

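The count of Hox genes called moved by no more than 1.5 times in 172 of 173 recomputations over 8 comparisons. The exception was UV+TiO2 against UV, where array weights called 1 gene, mab-5. This margin is wide, because from a count of 4 or 5 among 6 genes no rise could exceed it. The count also adds rises and falls. Median centring for UV against control thus passed as unchanged, although 3 genes fell and 1 rose there, against 4 and 0 as reported. In these counts nob-1 was read by 175771_at or, as its lowest probe set, by 191468_s_at. Both fell with UV, so the counts could not show how far they depend on 175709_at, which did not fall. With each array left out in turn the count was 3 to 5 for UV against control, 4 to 5 for UV+TiO2 against TiO2, 3 to 4 for UV+TiO2 against control, and always 5 for UV averaged over TiO2 state. With a replicate block the counts were 4, 5, 4 and 5 in these comparisons, as without it. The replicate numbers did not pair the arrays consistently over the 4 groups. Deviations of same-numbered arrays from their group means correlated between −0.71 and 0.50. Of 18 correlations 8 were over 0.1, and 3 of 12 arrays correlated best with their own number. Array medians did rise with the number both in the control group (6.54, 6.56 and 6.63) and in the UV group (6.36, 6.39 and 6.45). The block changed no call of a Hox probe set. Over single probe sets 1235 of 1256 recomputed values stayed on their side of the threshold, 10 lost a call, 11 gained one, and no called value changed sign. Values that did not pass changed sign in 74 recomputations. lin-39, both mab-5 probe sets and nob-1 175771_at and 191468_s_at kept their calls for UV, with and without TiO2, in every alternative that held them. The filter on low values removed egl-5, mab-5 173387_at and 2 nob-1 probe sets. The median of the Wnt, Ras and other inputs turned to −0.019 with a repeated quantile normalization, and that of other homeobox genes to 0.015 with median centring, where the median over all probe sets moved to 0.28, against 0.14 as reported. php-3 passed for UV against control once each array's SD entered the model, an alternative chosen after seeing the data (−0.20, limma adjusted p = 0.0207). The causes were not tested.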
